A study of Mus musculus with 21 samples.

Results

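Potassium channel subunits were examined in the neocortex of rNLS8 mice. The genes were chosen by symbol, as every row of the deposited count table named Kcn followed by letters and a number, without rows marked as further copies of a symbol and without antisense names, and with a mean of at least 10 counts over the 21 libraries. Of 48474 rows, 93 had such a symbol, 80 reached that mean and 13 did not.

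The 10 rNLS8 mice carry a tetracycline-regulated human TDP-43 without its nuclear localization signal (TDP-43ΔNLS), driven by the neurofilament heavy chain promoter and therefore made almost only in neurons. The 11 controls are labelled WT, which the series text describes as littermates with 1 transgene, and are called wild-type here. All 21 mice received 350 µg of a non-targeting antisense oligonucleotide (ASO) in 10 µL into a ventricle at 17 to 19 weeks of age, stayed on a diet with 200 mg/kg doxycycline, which silences the transgene, for another 2 weeks, and were sacrificed 3 weeks after doxycycline was withdrawn. The experiment comprised batch A (4 wild-type and 3 rNLS8 mice) and batch B (7 wild-type and 7 rNLS8 mice). The sex of the mice is not in the labels, and per the methods, rNLS8 mice came from 3 litters. Whether that covers these 10 mice is not stated, so they may share litters.

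Potassium channels let potassium leave the cell and so pull the membrane towards rest. Voltage-gated (Kv) channels open on depolarization, end the action potential and set the delay between spikes. Inward rectifiers (Kir) and tandem-pore-domain (K2P) channels are open near rest and hold the resting potential, and calcium- or sodium-activated channels follow ion entry during firing. Most pore-forming subunits assemble as tetramers, and cytosolic or membrane-spanning accessory subunits change their trafficking and kinetics. In cortical neurons these channels are sorted to particular places, such as Kv1 to axons, Kv2 to the cell body and Kv4 to dendrites, while astrocytes carry the Kir channels that take up potassium after firing.

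Each library held between 20700912 and 22263809 counts, so that 3 counts correspond to between 0.135 and 0.145 CPM (counts scaled to the total of a library). Mouse Tardbp, onto which reads of the human transgene may also fall, had 2254, 2646 and 2829 normalized counts (lowest, median and highest) in wild-type mice and 2362, 4498 and 5054 in rNLS8 mice. In batch B all 7 rNLS8 mice were above all wild-type mice, whereas in batch A the level was 2901 in mouse T61342, 3084 in mouse T60303 and 2362 in mouse T61340, the last being within the wild-type range. The library of T61340 is therefore described as labelled rNLS8, and results that it moves are given with and without it. It also had the lowest or the highest value of the 10 rNLS8 mice for 41 of the 80 potassium channel genes, against 4 to 25 in the other rNLS8 mice. Markers of neurons were detected in every library, and no marker of the lists for neurons, interneurons, astrocytes, oligodendrocytes and their precursors, microglia, vessels, striatum, thalamus and choroid plexus was at 0 in all mice. In bulk tissue, fewer cells of a type and less RNA per cell cannot be told apart.

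In rNLS8 mice, 43 of the 80 potassium channel genes (53.8%) passed the threshold of an adjusted p under 0.05 in edgeR's quasi-likelihood test with batch as covariate, against 43.6% of all 19052 rows tested. The test was run on the whole table, and p-values were adjusted over all of it. Only 9 of the 80 (11.2%) were higher, against 22.4% of all rows, and 34 (42.5%) were lower, against 21.2% of all rows. The median log2 fold change was -0.16 over the 80 genes and -0.0019 over all rows, and 59 of the 80 (73.8%) were below 0, against 50.2% of all rows. Scaling by total counts alone, without edgeR's TMM factors, raised the median of all rows by 0.08, put that of the 80 genes at -0.08 and gave 13 higher and 23 lower genes, against 31.2% higher and 14.7% lower among all rows. The 11 lower genes that no longer passed on that scale were Kcng1, Kcng2, Kcnc2, Kcnip4, Kcnh6, Kcnma1, Kcnu1, Kcnn3, Kcnj10, Kcnj14 and Kcnk1. Without mouse T61340 there were 10 higher and 30 lower genes, against 22.6% and 21.7% of all rows, and the median of the 80 genes was -0.13. Of the 43 genes, 38 still passed and all 43 kept their direction, the 5 lost being Kcng1, Kcng2, Kcnc2, Kcnh6 and Kcnu1, while Kcna6 (higher) and Kcng4 (lower) were gained. Every gene described below by the rule for named genes that passed with T61340 also passed without it.

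The genotype groups were fully separated for a few genes only. All 10 rNLS8 mice were below all 11 wild-type mice for 4 of 80 genes (5%), among them Kcnv1, Kcnj12 and Kcnk2, against 3.67% of all rows. All were above for 2 of 80 (2.5%), among them Kcnab2, against 3.71%. When the library of T61340 was left out, Kcnh3 joined the separated lower genes (4.46% of all rows) and Kcnk10 the separated higher genes (4.62% of all rows). The higher genes included 5 of the 10 K2P channels, Kcnab2, Kcnb2 and Kcne1l.

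**Figure D1:**
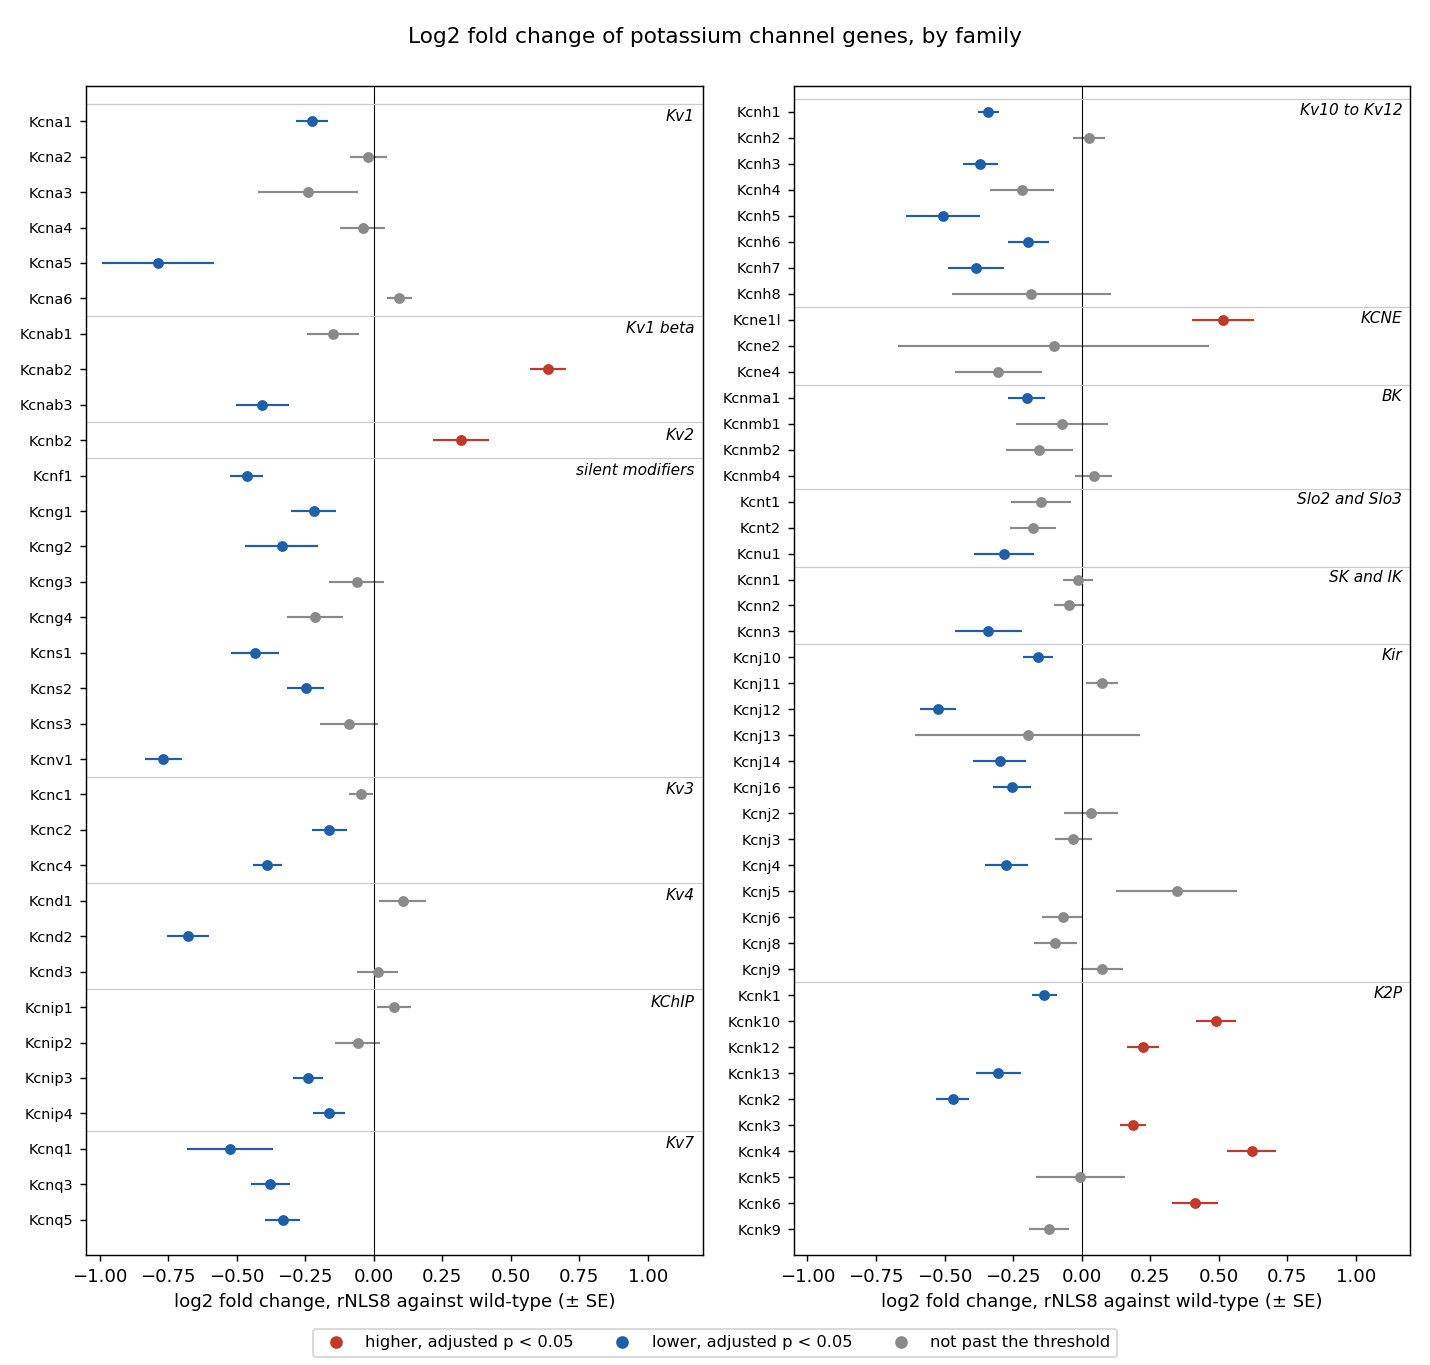
Log2 fold change of 76 potassium channel genes in rNLS8 against wild-type mice (x axis, edgeR with batch as covariate, n = 10 and 11, bars are 1 SE), grouped by family. Red genes were higher (8), blue genes lower (33) and grey genes did not pass the threshold (35). Values run from -0.79 for Kcna5 to 0.64 for Kcnab2, and most K2P genes that passed lie to the right of 0.

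To show what lies at the start of the genes that moved most, promoter windows from 250 bases before to 50 bases after the RefSeq start site in GRCm38.p6 are printed for the 2 higher and the 2 lower genes with the largest change among those named below that have 1 listed start. The GC box, searched as GGGCGG on both strands, is in capitals. The windows are chr19:6934466-6934765 on the minus strand for Kcnk4, chrX:142306149-142306448 on the minus strand for Kcne1l, chr6:126535506-126535805 on the minus strand for Kcna5 and chr6:21215096-21215395 on the plus strand for Kcnd2, each written 5′ to 3′ along its gene.

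Kcnk4: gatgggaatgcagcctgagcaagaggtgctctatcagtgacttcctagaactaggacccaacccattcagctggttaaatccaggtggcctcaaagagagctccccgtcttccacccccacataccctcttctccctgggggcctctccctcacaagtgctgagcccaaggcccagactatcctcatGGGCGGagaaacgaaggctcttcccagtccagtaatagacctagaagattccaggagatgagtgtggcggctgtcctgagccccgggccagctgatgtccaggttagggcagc
Kcne1l: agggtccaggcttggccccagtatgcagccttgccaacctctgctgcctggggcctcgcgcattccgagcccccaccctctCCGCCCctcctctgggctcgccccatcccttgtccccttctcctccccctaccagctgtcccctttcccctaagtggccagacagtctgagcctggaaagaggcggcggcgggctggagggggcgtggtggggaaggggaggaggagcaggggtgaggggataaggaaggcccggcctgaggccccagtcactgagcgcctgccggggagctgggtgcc
Kcna5: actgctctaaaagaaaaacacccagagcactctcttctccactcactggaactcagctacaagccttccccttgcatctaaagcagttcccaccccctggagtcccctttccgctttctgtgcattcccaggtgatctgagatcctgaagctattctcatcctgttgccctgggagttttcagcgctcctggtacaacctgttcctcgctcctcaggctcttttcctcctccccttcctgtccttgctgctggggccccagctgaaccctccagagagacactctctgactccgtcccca
Kcnd2: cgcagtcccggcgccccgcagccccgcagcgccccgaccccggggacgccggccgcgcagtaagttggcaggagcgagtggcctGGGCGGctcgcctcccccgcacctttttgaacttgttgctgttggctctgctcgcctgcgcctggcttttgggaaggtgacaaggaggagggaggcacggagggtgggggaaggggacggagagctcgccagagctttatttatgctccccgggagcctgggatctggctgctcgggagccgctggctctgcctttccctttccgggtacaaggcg

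The Kcnk4, Kcne1l and Kcnd2 windows held 1 GC box each and the Kcna5 window none. Of the 80 genes, 57 matched the promoter table by symbol, and 39 of them (68.4%) had a GC box in at least 1 listed window, against 38.2% of all 27025 genes in the table. Counted by window, the shares were 41 of 81 (50.6%) and 35.7% of all 32851 windows. The whole table was not limited to genes with counts in these libraries, unlike the 57 genes. The share was 5 of 5 among higher genes, 14 of 22 among lower genes and 20 of 30 among the rest. TATAAA on either strand was found for 4 of 57 genes (7.02%), against 15.7% of all genes, and TGACGTCA, the palindromic cyclic AMP response element, for none of the 57, against 2.03%. These matches describe letters in a window and were not tested for a relation to the changes.

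Kv1 channels, which sit in axons and around nodes of Ranvier, were lower for 2 of 6 genes, with a median log2 fold change of -0.13. Kcna1 (chr6:126640397-126646384 in GRCm38, as all positions here) encodes a low-threshold axonal subunit and had the highest wild-type level per kilobase of exon among the Kv1 genes, 947 normalized counts. It stood at 3794, 4525 and 5133 normalized counts (lowest, median and highest) in wild-type and 2881, 3978 and 4788 in rNLS8 mice, with T61340 lowest. The groups overlapped, 3 rNLS8 mice lay below all wild-type mice, and the log2 fold change was -0.23 (SE 0.06, adjusted p = 0.00343) and -0.19 without T61340.

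Its usual partner Kcna2 had 5897, 6316 and 7589.6 normalized counts in wild-type and 4533, 6441 and 7866 in rNLS8 mice. The rNLS8 range covered the wild-type range, and the log2 fold change of -0.02 (SE 0.07, adjusted p = 0.843) was close to 0. Without T61340 its sign changed, to 0.03. Kcna3, a Kv1 subunit also known from lymphocytes and microglia, ranged over 142, 196 and 216 in wild-type mice and 33.3, 176 and 213 in rNLS8 mice, with 4 rNLS8 mice below all wild-type mice and T61340 far below the others at 33.3. Its log2 fold change of -0.24 (SE 0.18, adjusted p = 0.31) did not pass and was -0.09 without T61340. The remaining 2 Kv1 genes, Kcna4 and Kcna6, did not pass.

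Kcna5 (chr6:126532551-126535412), a delayed rectifier better known from heart and smooth muscle, had the most negative estimate of all 80 genes at low counts. Wild-type mice had 75.9, 142 and 317 normalized counts and rNLS8 mice 54.4, 84.4 and 149, with 5 rNLS8 mice below all wild-type mice. The log2 fold change was -0.79 (SE 0.20, adjusted p = 0.00301), -0.85 in batch A alone and -0.76 in batch B alone. Markers of striatal projection neurons varied with it from mouse to mouse. The summed level of Drd1, Drd2, Adora2a and Ppp1r1b was 3325 in wild-type mouse T61345, which had the lowest wild-type Kcna5 level, and 16542 in wild-type mouse T_69523, which had the highest. This sum ranged from 3325 to 16542 (median 7571) among wild-type and from 2945 to 13254 (median 6854) among rNLS8 mice, and of these genes Drd1 was lower and the others did not pass. Per 1000 counts of these markers, Kcna5 had 9.96, 19.1 and 22.8 counts (lowest, median and highest) in wild-type and 8.60, 12.7 and 22.7 in rNLS8 mice, so the groups overlapped on that scale, with 2 rNLS8 mice below all wild-type mice. The part of these markers in the Kcna5 result was not tested.

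The Kv1 beta subunits, cytosolic partners that bring Kv1 channels to the axon and can speed their inactivation, moved in opposite directions. Kcnab2 (chr4:152390742-152477871) had the highest level per kilobase of exon of all 80 genes in wild-type mice, 2099.8 normalized counts. It had 9676, 11820.2 and 14434 normalized counts in wild-type and 14578, 16963 and 24056 in rNLS8 mice. Every rNLS8 mouse was above every wild-type mouse, and the log2 fold change was 0.64 (SE 0.07, adjusted p = 2.79e-08) and 0.60 without T61340.

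Kcnab3 (chr11:69326258-69333042) fell. It had 881, 1083 and 1375 normalized counts in wild-type mice and 668, 769 and 1199.5 in rNLS8 mice, of which 7 were below all wild-type mice. T61340 was the exception at 1199.5, next to 894 in the second highest rNLS8 mouse. The log2 fold change was -0.41 (SE 0.10, adjusted p = 0.00126) with T61340 and -0.49 without it. Within a mouse, the ratio of Kcnab2 to Kcnab3 in normalized counts, which is not corrected for gene length here or below, had a wild-type median of 10.9 and an rNLS8 median of 21.97, and all 10 rNLS8 mice were above the highest wild-type mouse. Kcnab1, the third family member, did not pass.

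Kcnb2 (chr1:15287254-15723750), a Kv2 delayed rectifier, had 432, 534 and 767 normalized counts in wild-type and 418, 736 and 947 in rNLS8 mice. Although the ranges overlapped, with T61340 lowest and 2 rNLS8 mice above all wild-type mice, the log2 fold change was 0.32 (SE 0.10, adjusted p = 0.0144) and 0.38 without T61340.

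Silent modifier subunits, which form no channel alone but join Kv2 subunits and shift their voltage range, had negative estimates for all 9 genes, and 6 of the 9 passed. Their median log2 fold change was -0.25. Kcnv1 (chr15:45106284-45114920), a brain-enriched silent subunit, gave the smallest adjusted p of all 80 genes. Its levels were 1919.7, 2217 and 2381 normalized counts in wild-type and 987, 1245 and 1595 in rNLS8 mice. No rNLS8 mouse reached the wild-type range, and the log2 fold change was -0.77 (SE 0.07, adjusted p = 1.93e-09), with -0.77 in batch A and -0.76 in batch B.

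Kcnf1 (chr12:17172100-17176888), the silent subunit with the highest wild-type level per kilobase of exon, 718 normalized counts, had 3019, 3414 and 4003 in wild-type and 2132, 2432 and 3058 in rNLS8 mice. A total of 9 rNLS8 mice were below all wild-type mice, and the log2 fold change was -0.46 (SE 0.06, adjusted p = 9.41e-07). Kcns1, a silent subunit known from sensory neurons, had 341, 417 and 537 in wild-type mice and 231, 319.7 and 434 in rNLS8 mice, with 8 rNLS8 mice below all wild-type mice. Its log2 fold change was -0.43 (SE 0.09, adjusted p = 0.000291). Kcns2, Kcng1 and Kcng2 also fell, by 0.25, 0.22 and 0.34 on the log2 scale, and of these Kcng1 and Kcng2 no longer passed without T61340 (adjusted p = 0.063 and 0.0922 from edgeR). With each of the 21 mice left out in turn, Kcng1 passed in 14 fits and Kcng2 in 8. Kcng3, Kcng4 and Kcns3 did not pass.

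**Figure D2:**
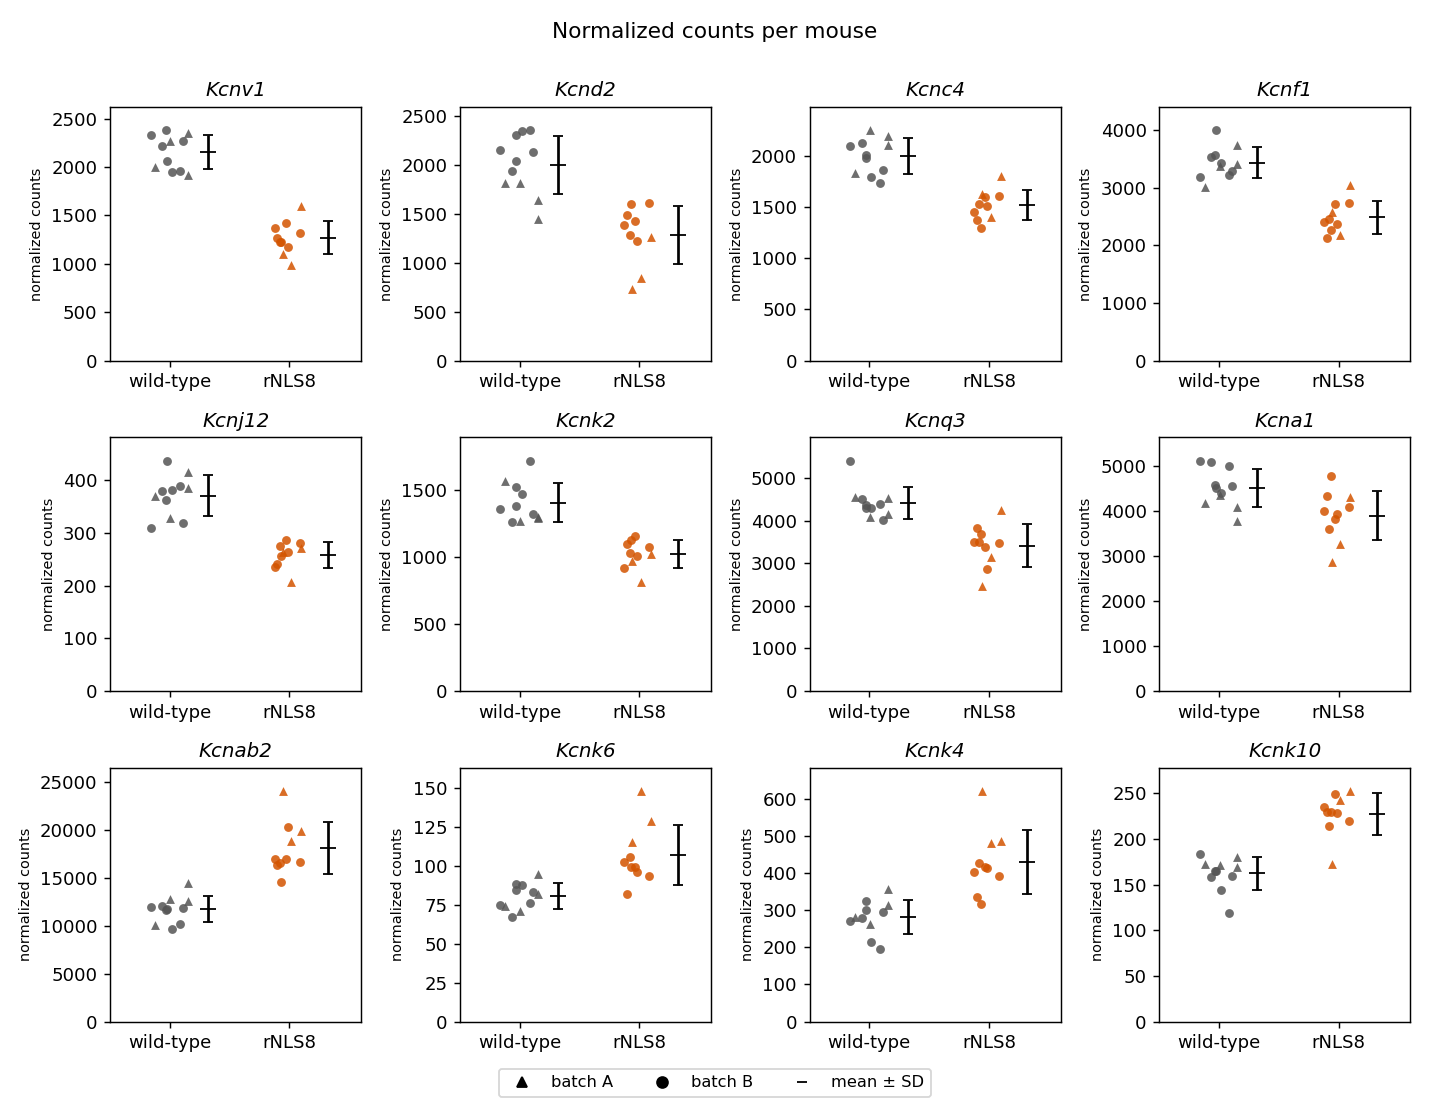
Normalized counts (y axis) of 12 potassium channel genes in each wild-type (grey, n = 11) and rNLS8 mouse (orange, n = 10), with triangles for batch A, circles for batch B and the mean ± SD beside the points. Kcnv1, Kcnj12 and Kcnk2 are lower and Kcnab2 higher without overlap, and the other panels overlap.

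Kv3 channels, which repolarize quickly and allow fast firing, were lower for Kcnc4 and Kcnc2. Kcnc4 (chr3:107438303-107459552) had 1727, 2009 and 2248 normalized counts in wild-type and 1291, 1517 and 1798 in rNLS8 mice, and 9 rNLS8 mice lay below all wild-type mice. This corresponded to a log2 fold change of -0.39 (SE 0.05, adjusted p = 1.92e-06). Kcnc1, a subunit of parvalbumin interneurons, had 4016, 4193 and 4810.3 in wild-type mice and 3729, 4098 and 4784 in rNLS8 mice, and its log2 fold change of -0.05 (SE 0.04, adjusted p = 0.428) did not pass. It was 0.10 in batch A alone and -0.12 in batch B alone, where it passed (edgeR adjusted p = 0.0418). Leaving out each mouse in turn gave -0.07 (without T61340) to -0.03.

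Kcnc2, also a subunit of fast-spiking interneurons, fell by 0.16 (SE 0.06, adjusted p = 0.0393) and passed in 11 of the 21 fits that each left out 1 mouse, with a highest edgeR adjusted p of 0.0871 (without wild-type mouse T_69532) and 0.0812 without T61340. With library-size scaling the adjusted p of Kcnc2 was 0.275. Beside these genes, 6 of the 7 interneuron markers were lower, with a median log2 fold change of -0.31, and their sum ran from 14459 to 23596 normalized counts in wild-type and from 10487 to 17444 in rNLS8 mice. Pvalb itself had a log2 fold change of -0.27 (adjusted p = 0.00736). The part of these markers in the Kv3 results was not tested.

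Kv4 channels carry the A-type current of dendrites, which damps back-propagating spikes. Kcnd2 (chr6:21215503-21729805), the main Kv4 gene of pyramidal cell dendrites, had the third most negative estimate, after Kcna5 and Kcnv1. It had 1445, 2037 and 2353 normalized counts in wild-type mice and 731, 1335 and 1609 in rNLS8 mice. Of the 10 rNLS8 mice, 7 were below all wild-type mice and T61340 was the lowest, and the log2 fold change was -0.68 (SE 0.08, adjusted p = 1.4e-07) and -0.63 without T61340.

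Kcnd3, a Kv4 gene of interneurons and other cells, had 1381, 1665 and 1976 normalized counts in wild-type and 1202, 1771 and 2133 in rNLS8 mice, which gave a log2 fold change of 0.02 (SE 0.07, adjusted p = 0.892). Leaving out each mouse in turn gave -0.05 to 0.06, the highest being without T61340. The within-mouse ratio of Kcnd3 to Kcnd2 had a wild-type median of 0.812 and an rNLS8 median of 1.33, and the 10 rNLS8 mice were all above the highest wild-type mouse. Kcnd1 did not pass.

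The KChIP calcium sensors, which bind the Kv4 N-terminus and bring it to the surface, were lower for 2 of 4 genes. Kcnip3, also known as the transcriptional repressor DREAM and as calsenilin, had 2498, 2818 and 3188 normalized counts in wild-type and 2056, 2324 and 3069 in rNLS8 mice. The groups overlapped, 6 rNLS8 mice were below all wild-type mice, and the log2 fold change was -0.24 (SE 0.06, adjusted p = 0.00101), with -0.09 in batch A and -0.31 in batch B. Kcnip4 fell by 0.16 on the log2 scale and lost significance without mouse T60303 (edgeR adjusted p = 0.0533), and Kcnip1 and Kcnip2 did not pass. Of the membrane-spanning Kv4 partners, which are not Kcn genes, Dpp10 fell by 0.30 on the log2 scale (adjusted p = 0.000132), and Dpp6 had a log2 fold change of 0.02 (adjusted p = 0.835).

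**Figure D3:**
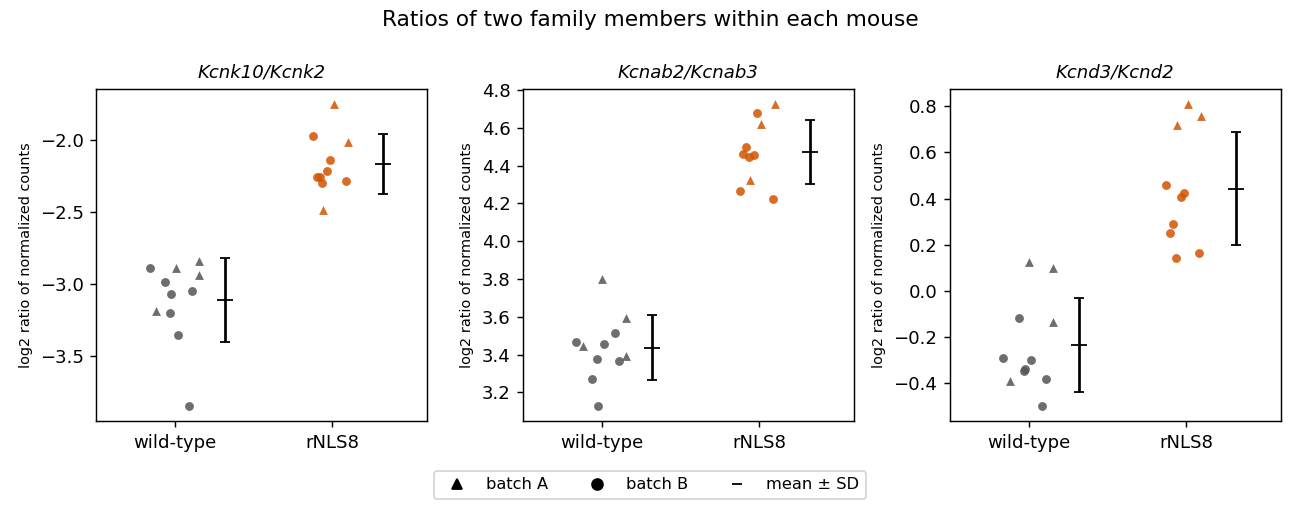
Log2 ratio of normalized counts (y axis) between members of a family within each wild-type (grey, n = 11) and rNLS8 mouse (orange, n = 10), with triangles for batch A, circles for batch B and the mean ± SD beside the points. All 10 rNLS8 mice are above all wild-type mice for Kcnk10/Kcnk2, Kcnab2/Kcnab3 and Kcnd3/Kcnd2. The second gene of each pair was lower by itself, so the ratios are not separate results.

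Kv7 channels carry the M current, a slow brake on repetitive firing that is concentrated at the axon initial segment. Kcnq3 (chr15:65986387-66286642) had 4018, 4359.6 and 5413 normalized counts in wild-type and 2457, 3496 and 4240.0 in rNLS8 mice, with 9 rNLS8 mice below all wild-type mice. The log2 fold change of Kcnq3 was -0.38 (SE 0.07, adjusted p = 0.000131), and -0.33 without T61340. Ank3, the ankyrin that anchors Kv7 channels at the initial segment, had a log2 fold change of 0.13 and did not pass (adjusted p = 0.0837).

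Kcnq5, the Kv7 subunit of cortical pyramidal cells, fell by 0.33 (SE 0.06, adjusted p = 0.000128). Kcnq1, the Kv7 channel of heart and epithelia, was near the lower limit of the data, with 11.7, 17.5 and 22.1 normalized counts in wild-type and 6.5, 11.97 and 15.1 in rNLS8 mice. This gave a log2 fold change of -0.52 (SE 0.16, adjusted p = 0.00815). Kcnq1 shares 121 exonic bases with the antisense transcript Kcnq1ot1, which had 1957 counts in all mice together against 295 for Kcnq1, and the sources used here do not say whether strand was used in counting.

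The Kv10 to Kv12 families (ether-à-go-go, Erg and Elk) were lower for 5 of 8 genes, and 7 of 8 estimates were negative, with a median of -0.28. Kcnh3, a forebrain Elk channel with the highest wild-type level per kilobase of exon in the group, 615 normalized counts, had 3119, 3538 and 4359.6 normalized counts in wild-type mice. In rNLS8 mice it had 2354, 2628 and 3534, with 9 mice below all wild-type mice and T61340 the highest. The log2 fold change was -0.37 (SE 0.06, adjusted p = 4.76e-05) and -0.41 without T61340.

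Kcnh5, an ether-à-go-go channel, ranged over 319.7, 416 and 591 in wild-type and 143, 336 and 376 in rNLS8 mice. T61340 held its lowest value and 4 rNLS8 mice were below all wild-type mice, with a log2 fold change of -0.51 (SE 0.13, adjusted p = 0.00354) and -0.42 without T61340. Kcnh1, its close relative, fell by 0.34 with little spread (SE 0.04, adjusted p = 7.31e-08). The Erg gene Kcnh7 fell by 0.38, and by 0.32 without T61340. Kcnh6 fell by 0.19 and passed in 10 of the 21 fits that each left out 1 mouse, with an edgeR adjusted p of 0.0597 without T61340. Kcnh2, the Erg gene of cardiac repolarization, Kcnh4 and Kcnh8 did not pass.

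KCNE subunits are small single-span proteins that modulate Kv channels. Kcne1l (chrX:142304752-142306294), the X-linked member also called Kcne5, had 45.1, 74.8 and 105 normalized counts in wild-type and 83.3, 105 and 139.5 in rNLS8 mice. The ranges overlapped and 5 rNLS8 mice were above all wild-type mice, with a log2 fold change of 0.51 (SE 0.11, adjusted p = 0.000644). Kcne2 and Kcne4 did not pass.

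Of the 10 genes of the BK, Slo2 and Slo3, and SK channels, most of which open on calcium or sodium entry, 3 passed, all of them lower. The BK pore Kcnma1, which opens on depolarization together with calcium entry, had 5035, 5692 and 7038 normalized counts in wild-type and 4025, 4963 and 6199 in rNLS8 mice. With 6 rNLS8 mice below all wild-type mice, its log2 fold change was -0.20 (SE 0.07, adjusted p = 0.0163) and -0.17 without T61340. Kcnma1 did not pass when counts were scaled by library size alone (edgeR adjusted p = 0.124). None of the 3 BK beta subunits measured passed, including the neuronal one, Kcnmb4, at 0.04 (SE 0.07, adjusted p = 0.628) and -0.000998 without T61340. The sodium-activated channel Kcnt1 had 1063, 1867 and 2069 in wild-type mice and 1237, 1446 and 2285 in rNLS8 mice, for a log2 fold change of -0.15 (SE 0.11, adjusted p = 0.298), and Kcnt2 did not pass either.

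Among the small-conductance SK channels, which contribute to the afterhyperpolarization, Kcnn2 had 451, 537 and 649 normalized counts in wild-type and 461, 523 and 658 in rNLS8 mice, which gave a log2 fold change of -0.05 (SE 0.06, adjusted p = 0.537). Kcnn3 fell by 0.34 (adjusted p = 0.0274) and by 0.24 without T61340 (adjusted p = 0.03), and it did not pass without wild-type mouse T_69527 (edgeR adjusted p = 0.0589). Kcnn1 did not pass, and 3272 counts assigned to a further copy of its symbol were not added. Kcnu1, the sperm channel Slo3, was lower at low counts (adjusted p = 0.0382) and did not pass with DESeq2 (adjusted p = 0.0586), and it passed in 7 of the 21 fits that each left out 1 mouse. Slo3 is gated by voltage and alkaline pH.

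Inward rectifiers were lower for 5 of 13 genes and higher for none. Kcnj12 (chr11:61022564-61071131), a strong rectifier that stabilizes the resting potential, had 309.6, 380.3 and 437 normalized counts in wild-type and 207, 264 and 287 in rNLS8 mice. The groups were separated, and the log2 fold change was -0.52 (SE 0.07, adjusted p = 6.82e-07), with -0.57 in batch A and -0.49 in batch B. The strong rectifiers Kcnj4, of forebrain neurons, and Kcnj14 also fell, by 0.27 and 0.30 (adjusted p = 0.00626 and 0.0146). Kcnj14 did not pass with library-size scaling (edgeR adjusted p = 0.0667). Kcnj2 had a log2 fold change of 0.03 and did not pass.

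G-protein-gated rectifiers, which carry the slow inhibitory current behind GABA-B and other receptors, did not pass for any of 4 genes. Their log2 fold changes were -0.03 for Kcnj3, -0.07 for Kcnj6, 0.07 for Kcnj9 and 0.35 for Kcnj5, the last at a wild-type median of 19.6 normalized counts. Without T61340, Kcnj6 was at -0.03 and Kcnj9 at 0.02. For Kcnj6, 5455 counts stood on a further copy row and were not added. The ATP-sensitive pore Kcnj11 had a log2 fold change of 0.08 and did not pass. Without T61340, the highest of the rNLS8 mice, it was 0.02, and it was 0.30 in batch A and -0.03 in batch B. Its partner receptor Abcc8, which is not a Kcn gene, rose by 0.34 (adjusted p = 0.000206).

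Of the 7 genes listed for glia and vessels, 3 fell, 1 rose, 2 did not pass and Kcnn4 had too few counts. Kcnj10, the astrocyte channel that takes up potassium at synapses and vessels, had 4493, 5128 and 6732 normalized counts in wild-type and 3844, 4614 and 5987 in rNLS8 mice. The log2 fold change of -0.16 (SE 0.05, adjusted p = 0.0193) came with 4 rNLS8 mice below all wild-type mice, and the gene did not pass with scaling by library size alone (edgeR adjusted p = 0.25). Kcnj16, which joins Kcnj10 in astrocytes, had 562, 649 and 888 in wild-type mice and 449.7, 572 and 673 in rNLS8 mice, with 5 rNLS8 mice below all wild-type mice and a log2 fold change of -0.25 (SE 0.07, adjusted p = 0.00451).

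Beside these, 4 of 6 astrocyte markers (Aqp4, Gja1, Slc1a3 and Aldh1l1) were lower on the log2 scale, at -0.26, -0.28, -0.15 and -0.18, and Gfap rose by 1.03 (adjusted p = 4.97e-08). The astrocyte sum overlapped between the genotypes, from 25351 to 31914 normalized counts in wild-type and from 24781 to 36456 in rNLS8 mice. Kcnk13, a K2P channel of microglia, had 139, 176 and 218 normalized counts in wild-type and 108, 141 and 176 in rNLS8 mice. This gave a log2 fold change of -0.30 (SE 0.08, adjusted p = 0.00428), with 5 rNLS8 mice below all wild-type mice.

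Microglial markers went in both directions, with Tmem119, Csf1r and Aif1 higher, P2ry12 lower at -0.35 (adjusted p = 2.51e-05) and 2 not past the threshold. Kcnj8, the ATP-sensitive pore of pericytes, had 61.7, 71.1 and 84.3 in wild-type mice and 54.9, 69.4 and 83.0 in rNLS8 mice, and its log2 fold change of -0.10 (SE 0.08, adjusted p = 0.346) did not pass. Kcnn4, the intermediate-conductance channel of activated microglia, had 92 counts in all 21 mice together, 38 in wild-type and 54 in rNLS8 mice. The part of changes in cell markers in these results was not tested.

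K2P leak channels held most of the genes that rose, with 5 of 10 higher, 3 lower and 2 not past the threshold. The heat-, stretch- and lipid-sensitive TREK group split. Kcnk2 (chr1:189207930-189402273) had 1259.5, 1355 and 1719.9 normalized counts in wild-type and 813, 1024 and 1160.0 in rNLS8 mice. No rNLS8 mouse reached the wild-type range, and the log2 fold change was -0.47 (SE 0.06, adjusted p = 5.1e-07).

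Its relatives Kcnk4 and Kcnk10 rose. Kcnk4 (chr19:6923966-6934515), whose promoter window is printed above, had 196, 283 and 358 normalized counts in wild-type and 318, 417 and 623 in rNLS8 mice. With 8 rNLS8 mice above all wild-type mice, the log2 fold change was 0.62 (SE 0.09, adjusted p = 3.39e-06) and 0.57 without T61340. Kcnk4 shares 587 exonic bases on the same strand with Catsperz, which had 2077 counts in all mice together against 7456 for Kcnk4, so reads could have been divided between them.

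Kcnk10 (chr12:98429437-98578310) had 119, 165 and 183 in wild-type and 172, 229.7 and 253 in rNLS8 mice, and only T61340, at 172, lay within the wild-type range. The log2 fold change was 0.49 (SE 0.07, adjusted p = 6.44e-06) and 0.54 without it. The ratio of Kcnk10 to Kcnk2 had a wild-type median of 0.121 and an rNLS8 median of 0.212, and all 10 rNLS8 mice, T61340 included, were above the highest wild-type mouse.

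Kcnk6, a weak rectifier found in many tissues, had 67.0, 81.8 and 94.8 normalized counts in wild-type and 82.1, 101 and 148 in rNLS8 mice. Of the 10 rNLS8 mice 8 were above all wild-type mice, and the log2 fold change was 0.41 (SE 0.08, adjusted p = 0.000321), 0.72 in batch A and 0.26 in batch B. Kcnk12, a K2P subunit that is hard to detect as a current by itself, had 212, 241 and 299 in wild-type mice and 226, 287 and 375 in rNLS8 mice, for a log2 fold change of 0.22 (SE 0.06, adjusted p = 0.0031).

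The acid-sensitive TASK channels set the leak of many cortical neurons. Kcnk3 had 486, 547 and 615 normalized counts in wild-type and 518, 599 and 731 in rNLS8 mice, with 4 rNLS8 mice above all wild-type mice and a log2 fold change of 0.19 (SE 0.05, adjusted p = 0.00206). Kcnk9, its partner, ranged over 1431, 1857 and 2163 in wild-type mice and 1073, 1793 and 1926 in rNLS8 mice, with T61340 far below the other rNLS8 mice, and its log2 fold change of -0.12 (SE 0.07, adjusted p = 0.203) did not pass and was -0.06 without T61340. Kcnk1 fell by 0.14 (adjusted p = 0.0201) but not with scaling by library size alone (edgeR adjusted p = 0.285), and Kcnk5 did not pass.

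Neuronal markers were lower in the same mice. The summed level of Rbfox3, Snap25, Syt1, Map2, Tubb3, Slc17a7 and Nrgn was between 153163 and 180475 normalized counts in wild-type and between 111923 and 141878 in rNLS8 mice, without overlap, and T61340 had the highest rNLS8 value. Of these 7 markers, 4 (Snap25, Syt1, Map2 and Nrgn) were lower and 3 did not pass, with a median log2 fold change of -0.44, compared with -0.16 for the 80 potassium channel genes. Slc17a7, the vesicular glutamate transporter of excitatory neurons, had a log2 fold change of 0.05 and Rbfox3 one of -0.10. Oligodendrocyte markers passed for 0 of 6 genes in edgeR at the adjusted threshold, with log2 fold changes from -0.03 to 0.13. The part of the neuronal markers in the channel results was not tested.

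Of 30 listed partners of potassium channels and related genes, 27 were tested, and 4 were higher and 12 lower, with a median log2 fold change of -0.13. Among the ligand and receptor proteins that hold Kv1 channels in place, the secreted Lgi1 fell by 0.55 (adjusted p = 1.11e-08) and its receptor Adam23 by 0.48 (adjusted p = 2.24e-08), while Adam22, Cntnap2 and Cntn2 did not pass. The scaffolds Dlg1, Dlg2 and Dlg4 fell by 0.34, 0.36 and 0.31 on the log2 scale. Akap5, the kinase anchor of Kv7 channels, fell by 0.85 (adjusted p = 9.04e-09).

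Calm3, a gene of calmodulin, which serves Kv7 and SK channels, rose by 0.29 (adjusted p = 6.34e-05). Vapa and Vapb, the endoplasmic reticulum proteins that bind Kv2 channels, fell by 0.14 and 0.29, and the Kv2 partner Amigo1 did not pass. The largest rise on the list was that of Hcn3, a hyperpolarization-activated cation channel related to Kv channels, by 1.11 (adjusted p = 1.14e-10), whereas Pex5l, a trafficking partner of such channels, fell by 0.19.

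Batch A alone gave 4 higher and 5 lower genes of 79 tested, against 6.99% and 4.83% of all rows there, and batch B alone gave 8 higher and 28 lower of 80, against 19.3% and 19.8%. Over all members, 61 of 79 (77.2%) had the same sign in both batches, against 79.3% of all rows. The interaction of genotype and batch passed for 0 of the 80 genes and 0% of all 19537 rows in edgeR's test, and at an unadjusted p under 0.05 for 10 of the 80 (12.5%), against 5.6% of all rows.

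**Figure D4:**
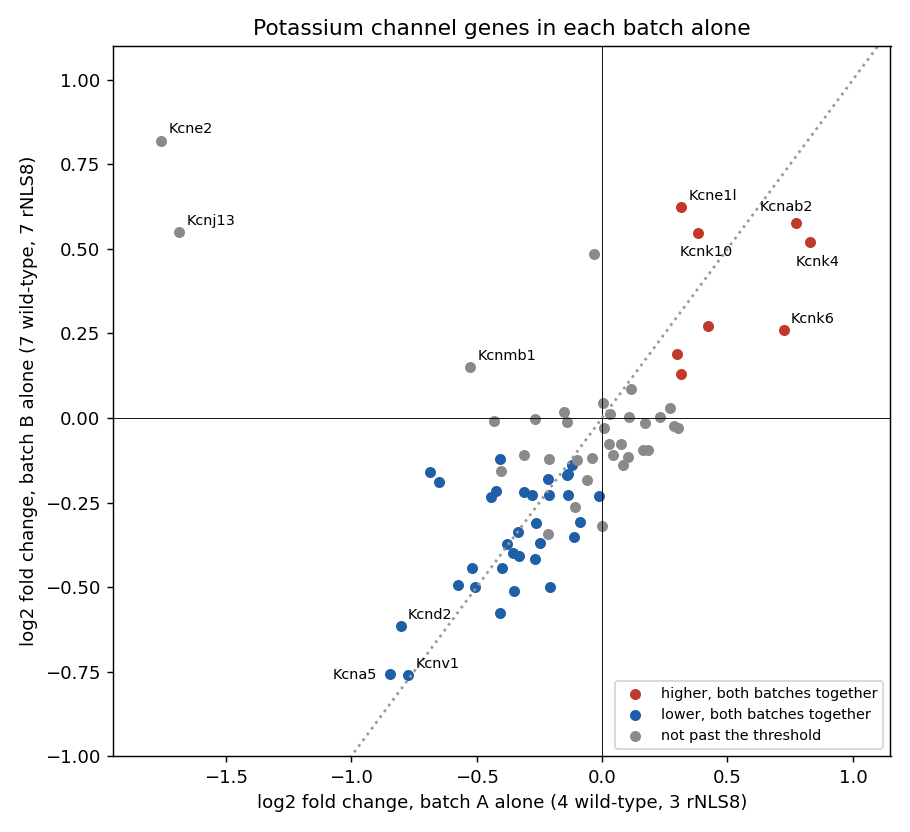
Log2 fold change of rNLS8 against wild-type mice in batch A alone (x axis, 4 wild-type and 3 rNLS8 mice) and batch B alone (y axis, 7 and 7) for 75 potassium channel genes, coloured by the result for both batches together, with equal values on the dotted line. The genes that passed lie in the lower left and upper right, and Kcnj13 and Kcne2 stand apart in the upper left.

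Kcnj13 and Kcne2, both described here after their values were seen, had opposite signs in the batches. Kcnj13, a weak rectifier of epithelia including choroid plexus, had 33.2, 90.7 and 586 normalized counts in wild-type and 38.3, 90.5 and 192 in rNLS8 mice, which gave a log2 fold change of -1.69 in batch A and 0.55 in batch B. Kcne2, a subunit of the choroid plexus potassium channel, had 0.98, 40.0 and 279.8 in wild-type mice and 6.7, 36.8 and 117 in rNLS8 mice, with -1.76 and 0.82. Neither interaction passed adjustment (unadjusted p = 0.00394 and 0.0178, adjusted p = 0.848 for both, edgeR).

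Choroid plexus markers varied in the same mice. Wild-type mouse T61334 of batch A had the highest value of all 21 for Kcnj13 (585.7), Kcne2 (279.8) and Ttr (43193), the transthyretin gene of choroid plexus, and wild-type mouse T_70262 of batch B the lowest for Kcne2 (0.980) and Ttr (187.2). The sum of Ttr, Kl and Folr1 ran from 287.2 to 45700.4 normalized counts in wild-type and from 502 to 23535 in rNLS8 mice, and none of the 3 passed. About 49.1% of the exonic bases of Kcnj13 are shared with Gigyf2 on the opposite strand. The part of choroid plexus tissue in these values was not tested.

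**Figure D5:**
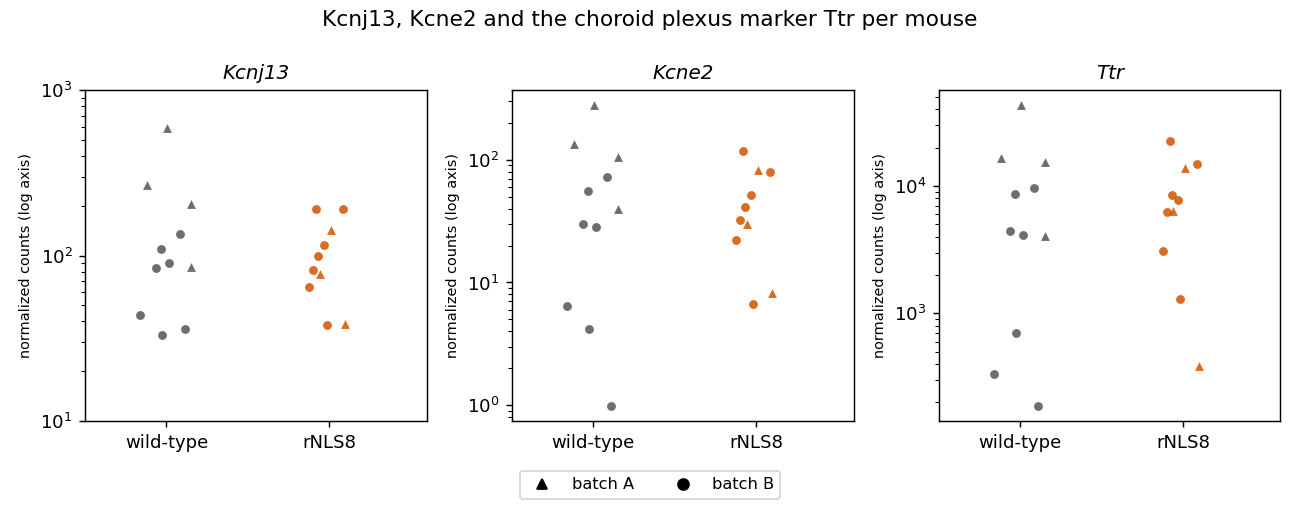
Normalized counts (y axis, log scale) of Kcnj13, Kcne2 and the choroid plexus marker Ttr in each wild-type (grey, n = 11) and rNLS8 mouse (orange, n = 10), with triangles for batch A and circles for batch B. The highest point of each panel is wild-type mouse T61334, and Ttr spans 187.2 to 43193.

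Gene length varied widely among the 80 genes. The median genomic span in GENCODE was 52.2 kb for higher, 62.8 kb for lower and 32.02 kb for the remaining genes. Of the 23 genes longer than 100 kb 2 were higher and 12 lower, beside 9 and 34 of all 80. The share among all tested rows of that length was not counted, so no trait of long channel genes can be read from this. Across the 80 genes, Spearman's rho between log2 fold change and span was -0.08, and across 14446 tested protein-coding genes it was -0.15 (-0.10 without T61340). These are descriptions across genes measured in the same libraries, and genes are not independent replicates.

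The 13 genes below the mean of 10 counts were Kcna10, Kcna7, Kcne1, Kcne3, Kcnj1, Kcnj15, Kcnk15, Kcnk16, Kcnk18, Kcnk7, Kcnmb3, Kcnn4 and Kcnv2. Over the 21 libraries they had at most 151 counts each (Kcnmb3), and Kcnk16, a channel of pancreatic islets, had 0 counts in every library, which allows up to 3 counts per library. All of the 80 remaining genes passed edgeR's filter on low counts.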

How the data were processed

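Neocortex RNA of 21 mice was sequenced as 100 bp read pairs and aligned to GRCm38 (mm10). The deposited values are raw, whole-number counts of reads for each gene symbol. The submitters' processing notes name HISAT, HISAT2, Bowtie, Bowtie2 and RSEM without roles, and the counting program and its use of strand are not given in the sources used here. Groups and batches were taken from the labels.

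Counts were tested in R 4.3.3 with edgeR 4.0.16 (TMM, filterByExpr with a minimum count of 10 and total of 15, quasi-likelihood test, genotype and batch, two-sided, Benjamini-Hochberg adjustment over all 19052 rows, threshold 0.05). P-values set the genotype difference against the spread between these mice that remains after batch, and litter is not in the model. For normalized counts, each count was scaled to the mean effective (TMM) library size. The standard error (SE) is the size of the log2 fold change over the square root of F. Alternatives included DESeq2 1.42.0, other scalings and filters, each batch alone and leaving out each mouse. Levels per kilobase used merged exons of GENCODE for GRCm38. Limits of 3 counts cover counting error only, since reads carried no molecular identifiers. The genotype and interaction tests were checked on simulated counts with known changes.

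Genes were named by a rule: those past the threshold with an absolute log2 fold change of at least 0.5, further ones up to 12 per direction with a mean of at least 50 counts, the gene with the highest mean of each family, and the axonal and glial sets. Some genes are not reported here, which left 35 named genes. Other genes given values were chosen after their values were seen. Members and lists were chosen with earlier results of these data known.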

Additional observations from a re-analysis of the deposited data

Results flagged for a closer look

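Among the 35 named genes, 4 had a rNLS8 mouse far from the other 9, by the gap to the nearest mouse divided by the range of the group, which passed the limit for 10 samples. In each case it was mouse T61340. It was low for Kcna3 (33.3 against 129 normalized counts in the next mouse, ratio 0.531), Kcnk10 (172 against 215, ratio 0.526) and Kcnk9 (1073 against 1547, ratio 0.556), and high for Kcnab3 (1200 against 894, ratio 0.575). Chance marks about 1 in 20 such groups, or 1.75 of 35. Over all 80 genes, 7 were marked, against 4 by chance, and T61340 was the mouse in all 7. The other 3 were Kcnh7 and Kcnn3 (low) and Kcnj11 (high). Mouse T61340 also had a Tardbp level within the wild-type range.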

How the results depend on the processing

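The 9 higher and 34 lower genes became 4 and 5 in batch A alone. Leaving out each mouse in turn gave 9 to 10 higher and 28 to 36 lower genes, and 36 of the 43 passed in all 21 of these fits. The 7 that did not were Kcng1, Kcng2, Kcnc2, Kcnip4, Kcnh6, Kcnu1 and Kcnn3, with highest adjusted p-values from 0.0533 to 0.0922. DESeq2 gave 9 and 33 (22.3% and 21.6% of all rows), library-size scaling 13 and 23, and leaving out T61340 and T60303 together 10 and 28 (20.6% and 19.5%). Estimates reversed for 4 named genes, none of which passed with both batches together, although Kcnc1 did in batch B alone (-0.115, adjusted p = 0.0418). By library size alone they were 0.0583 for Kcna2, 0.0305 for Kcnc1 and 0.0304 for Kcnn2. In batch A alone they were 0.00885 for Kcna2, 0.104 for Kcnc1 and 0.0258 for Kcnn2. Without both mice Kcna2 was at 0.0501. Leaving out each mouse in turn gave -0.0805 to 0.0287 for Kcna2 and -0.0534 to 0.0632 for Kcnd3. The cause was not tested. In batch A alone, with 7 mice, 20 of the 35 named genes kept their direction but no longer passed, against 3 in batch B alone. A filter by genotype group, an alternative chosen after seeing the data, changed the side of the threshold of none of the 35, and nor did DESeq2. Without batch as covariate there were 9 higher and 29 lower genes, and without the filter on low counts 9 and 25. In each of these fits 1 named gene no longer passed, as did 1 without T61340 and T60303 together. No paired analysis was possible because the labels carry no replicate numbers shared between the groups.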
